A study of Mus musculus with 3 samples.

Results

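The genes described here encode the respiratory chain, the protein machinery of the inner mitochondrial membrane that oxidizes nutrients and makes ATP. They were taken by gene symbol from the 31053 genes of the count tables. Symbols beginning with Nduf gave 46 genes of complex I, *Sdha* to *Sdhd* gave the 4 genes of complex II, Uqcr symbols with *Cyc1* gave 9 genes of complex III, Cox4 to Cox8 symbols gave 18 genes of complex IV, and Atp5 symbols gave 17 entries of complex V. This makes 94 nuclear entries, beside which the 13 protein-coding genes of the mitochondrial genome (mt- genes) are described. The symbol *Atp5o* has 2 entries, of which 1 had no count in the microglia. The rule also takes in the Ndufaf genes, which encode assembly factors and not subunits, and it misses assembly factors with other symbols. Complexes are thus named here by symbol alone, and the place of each product, such as that of *Ndufa4*, was not checked.

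Single-cell RNA sequencing was performed on cells sorted from the brains, with optic nerves and choroid plexus, of 10-month-old mice of either sex as CD45 low Siglec-H+ microglia and CD45- O1+ oligodendrocytes. The mice were *Wt*, *PLPmut*, which are homozygous for a mutant myelin proteolipid protein (PLP), or *PLPtg*, which are hemizygous for a transgene that overexpresses normal PLP, all on a C57BL/6J background. PLP is the major protein of central myelin and is made by oligodendrocytes. Each genotype had 1 library with the pooled cells of 3 mice, and no difference between genotypes has a replicate check. The libraries held 77677489, 75251446 and 68760898 unique molecular identifiers (UMIs, counted molecules) in the order *Wt*, *PLPmut* and *PLPtg*, which is the order of all values given as a series of 3 here.

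Electrons from NADH enter the chain at complex I and electrons from succinate at complex II, pass through complex III to complex IV, which reduces oxygen, and the proton gradient built on the way drives ATP synthesis by complex V. Complexes I, III, IV and V combine subunits from both genomes, whereas complex II is wholly nuclear and is also an enzyme of the tricarboxylic acid cycle. A few conserved core subunits carry out catalysis, and many small accessory subunits surround them. Microglia are known to shift their energy metabolism when they are activated.

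Microglia were 9354, 8300 and 8244 cells in 8 clusters recognized by their marker genes. A cell was called activated when *Cst7*, *Itgax*, *Lpl* and *Spp1*, genes known to be induced in microglia around damaged myelin, together held at least 0.1% of its UMIs. This gave 73, 149 and 1232 activated cells, which are 0.780%, 1.80% and 14.9% of microglia, and 9281, 8151 and 7012 other microglia. Activation by this rule is a range of a score and not a cell type. In all, 33, 54 and 249 cells lay near the limit, between 0.08% and 0.12%. One cluster, led by *Spp1*, *Gpnmb* and *Lpl*, held 61.6%, 87.9% and 91.4% of the activated cells, and a cluster led by interferon-induced genes held another 23.3% of those of *Wt*. The activated sums had 616890, 1377975 and 9934454 UMIs, so the counting error was largest in *Wt* and smallest in *PLPtg*. Libraries shared 78 to 84 barcodes each with another library.

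Of genes outside the 4 that define the states, 15 other known activation genes were all called higher and 8 homeostatic genes all lower in the activated cells by the test described further on. Of the 7 genes on the list of oligodendrocyte precursors, *Cspg4* carried nearly all of the sum in activated cells, with 25.9, 8.71 and 73.9 UMIs per 1000000 UMIs of the group (CPM) in activated and 0.0883, 0.0887 and 2.25 CPM in other microglia, while the defining marker *Pdgfra* had 0 in all activated groups. The 6 endothelial genes summed to 48.6, 46.4 and 89.8 CPM in activated and 26.2, 22.9 and 26.2 CPM in other microglia. Most of the activated sum was *Flt1*, with 38.9, 37.0 and 83.8 CPM, and the defining marker *Cldn5* had 0 there. The 7 choroid plexus genes, mainly *Ttr*, held 110, 40.6 and 106 CPM in activated and 67.6, 45.3 and 71.7 CPM in other microglia. The 8 astrocyte genes were lower in activated cells of every library, with 94.0, 102 and 82.6 CPM against 156, 150.2 and 142 CPM, as were the 6 B cell genes, with 222, 196 and 174 CPM against 333, 295 and 307 CPM. Their part in the results was not tested.

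**Figure D1:**
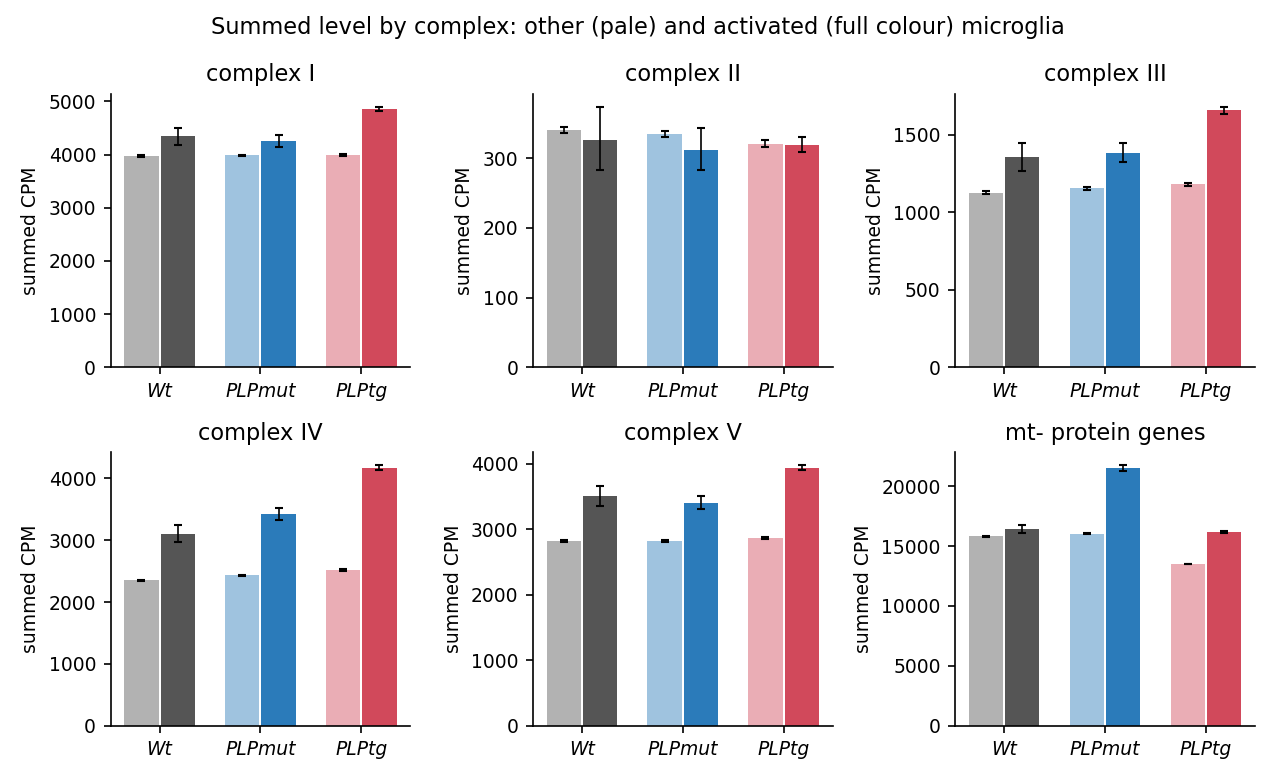
Summed level of the genes of each complex (y axis, CPM) in other microglia (pale bars) and activated microglia (full colour) of the 3 libraries, with exact Poisson 95% intervals that cover counting error only. Complex IV had the largest ratio of the states in every library, complex II the smallest, and the mt- genes had their highest level in activated *PLPmut* cells.

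The first question was whether the complexes differ between activated and other microglia. Complex IV had the largest ratio of activated to other cells in every library. Its summed level was 3108, 3423 and 4177 CPM in activated cells against 2351, 2433 and 2516 CPM in other microglia, so each activated group lay above all 3 groups of other microglia. The log2 ratio of activated to other cells, with its exact 95% interval, was 0.40 (0.34 to 0.47) for *Wt*, 0.49 (0.45 to 0.53) for *PLPmut* and 0.73 (0.72 to 0.75) for *PLPtg*, with a mean of 0.54 ± 0.17 (SD, n = 3 libraries). Complex V followed at 0.35 ± 0.10, from 3505, 3407 and 3940.1 CPM in activated and 2821, 2815 and 2862 CPM in other cells. In *Wt* its log2 ratio was 0.31 (0.25 to 0.37), an interval that overlapped that of complex IV. The sum of complex IV includes *Cox6a2*, described below, whose own ratio was far larger, and no sum without this gene was made. Complex III had a ratio of 0.34 ± 0.13, with 1355, 1384 and 1657 CPM against 1127, 1155 and 1179.6 CPM.

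Complex I differed less, by 0.17 ± 0.10, with 4341, 4249.7 and 4860.0 CPM in activated and 3969.9, 3985 and 3998 CPM in other cells. Its groups did not overlap either. Complex II held 326, 312 and 319 CPM in activated and 341, 335 and 320.4 CPM in other cells, a log2 ratio of -0.06 ± 0.05, and the interval of the ratio contained 0 in each library. An exact two-sided sign-flip test over 3 libraries cannot give a p below 0.25, so the sums are given with their spread and without a call. On the CPM scale the median log2 ratio over all tested genes was -0.09, -0.16 and -0.30, and the complexes are to be read against that shift. With the normalization of edgeR (TMM), which brings the median of all genes near 0, the ratios were 0.34 for complex I, 0.11 for II, 0.51 for III, 0.71 for IV and 0.52 for V, so the direction of complex II turned with the scaling and the others kept theirs.

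Gene by gene, activated and other cells of the same library were compared with edgeR's quasi-likelihood test over the 6 sums of UMIs, with the library as a block and Benjamini-Hochberg adjustment over all genes with a mean of at least 10 CPM. Of these 8051 genes, 18.6% were called higher and 16.2% lower at an adjusted p of 0.05. Of the 94 nuclear entries 11 stayed under the filter, namely *Ndufa4l2*, *Ndufaf1*, *Ndufaf5*, *Ndufaf6*, 6 isoforms of complex IV and the empty *Atp5o* entry. Among the 83 that passed, 50 were called higher and 0 lower, and 33 did not pass the test. An unadjusted edgeR p under 0.05 was found for 58 of them, beside 3507 of all 8051 genes. DESeq2 called 48 higher and 0 lower, beside 1163 and 837 of all 8051 genes. By complex, 21 of 42 genes were higher in complex I, 0 of 4 in II, 6 of 9 in III, 11 of 12 in IV and 12 of 16 in V, and the median log2 fold change was 0.27, 0.13, 0.55, 0.70 and 0.54, beside -0.01 over all genes. The count of complex I was 11 without the *PLPtg* library and 12 without TMM. In these settings 988 of 8071 and 899 of 8051 genes were called higher among all genes. Without TMM, with library totals alone, the share of higher among all calls fell from 53.4% to 26.4%, and 40 nuclear members were higher and 1, *Ndufaf7*, was lower.

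**Figure D2:**
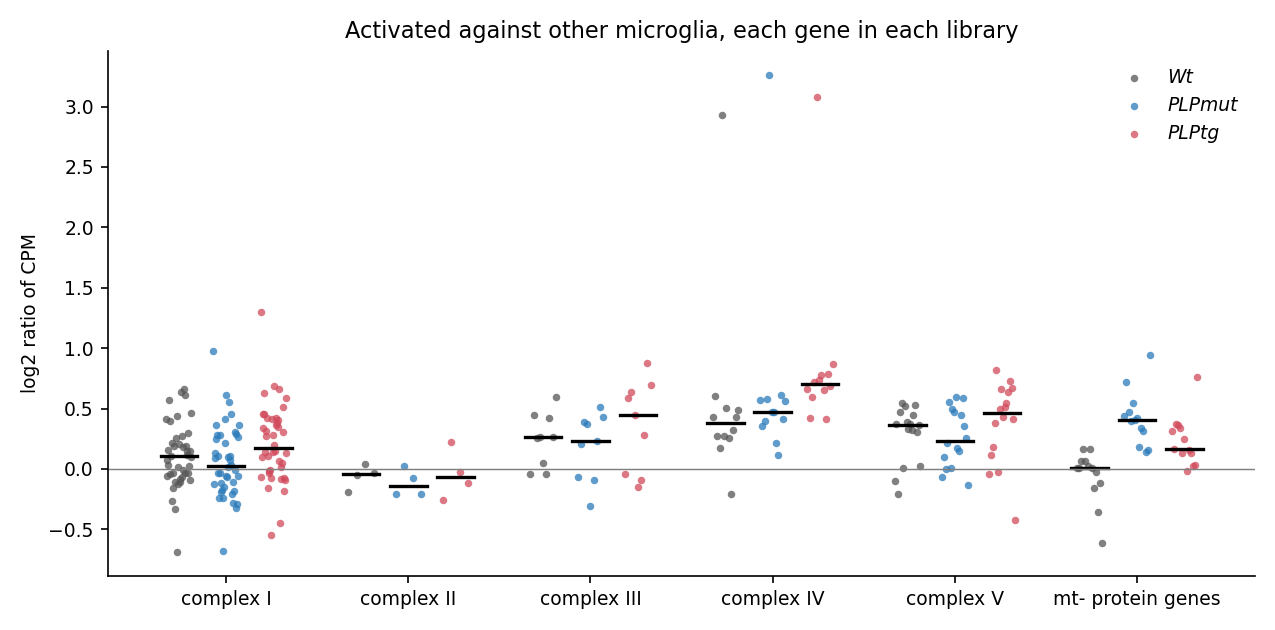
Log2 ratio of CPM in activated to other microglia (y axis) for each tested gene, by complex, in each library (colour). Black bars are medians. In complex IV the medians were 0.38, 0.47 and 0.70 and a single gene, *Cox6a2*, stood near 3 in all libraries.

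*Cox6a2* separated the states most. It encodes the isoform of subunit 6a of cytochrome c oxidase that is known from heart and skeletal muscle, whereas *Cox6a1* encodes the isoform found in most tissues. *Cox6a2* (ENSMUSG00000030785) had 79, 129 and 1577 UMIs in activated cells, which are 128 (101 to 159.6), 93.6 (78.2 to 111) and 159 (151 to 167) CPM, with exact Poisson 95% intervals. In other microglia it had 16.8, 9.74 and 18.7 CPM. The groups were far apart in every library, with ratios of 7.61, 9.61 and 8.47. The edgeR log2 fold change was 3.29 ± 0.11 (SE), with an adjusted p of 1.1e-14 by the quasi-likelihood test, and it lay between 3.1 and 3.43 under all 17 alternatives.

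*Cox6a1* differed far less between the states. It had 164, 226 and 258 CPM in activated and 145, 151 and 157 CPM in other cells, an edgeR log2 fold change of 0.71 ± 0.12 and an adjusted p of 9.1e-05. The coding sequences of the 2 genes are shown because reads of one could be counted for the other only where they are alike. They were read from the GENCODE M21 transcripts (GRCm38), 5′ to 3′, with capitals for bases that are identical in a global alignment. *Cox6a1* lies on chromosome 5 and *Cox6a2* on chromosome 7, both on the minus strand.
Cox6a1, first 300 of 336 coding bases: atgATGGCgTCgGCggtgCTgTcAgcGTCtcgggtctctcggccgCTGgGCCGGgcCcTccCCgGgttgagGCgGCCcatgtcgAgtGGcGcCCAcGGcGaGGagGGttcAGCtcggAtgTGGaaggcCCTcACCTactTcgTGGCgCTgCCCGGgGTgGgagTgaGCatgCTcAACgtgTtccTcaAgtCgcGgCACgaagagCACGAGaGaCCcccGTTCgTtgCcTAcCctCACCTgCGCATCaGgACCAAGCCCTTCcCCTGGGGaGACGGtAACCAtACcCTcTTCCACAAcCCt
Cox6a2, all 291 coding bases: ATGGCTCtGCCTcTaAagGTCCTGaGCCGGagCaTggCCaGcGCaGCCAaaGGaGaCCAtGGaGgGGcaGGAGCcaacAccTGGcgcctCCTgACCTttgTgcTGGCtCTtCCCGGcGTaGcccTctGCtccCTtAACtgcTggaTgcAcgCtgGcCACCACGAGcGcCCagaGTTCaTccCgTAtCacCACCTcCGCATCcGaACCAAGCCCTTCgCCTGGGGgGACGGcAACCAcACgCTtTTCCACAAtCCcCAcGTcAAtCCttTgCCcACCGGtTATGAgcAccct
Over 291 aligned bases 188 were identical (64.6%), and the longest identical run had 12 bases, so the coding parts of the 2 genes differ throughout. The libraries were read from the 3′ end of transcripts, which these coding sequences do not cover in full.

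*Cox6a2* lies at 128205435-128206387 on chromosome 7 (GRCm38), inside the span of *Itgad* (128154376-128223816), which runs on the other strand. *Itgax*, which is 1 of the 4 genes that define activation, ends 54778 bases before it. The strand setting of the counting is not given in the sources used here. *Itgad* had 0, 0 and 14 UMIs in activated and 55, 100 and 117 UMIs in other microglia, fewer than *Cox6a2* in each group.

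To compare shares of cells at equal depth, 2000 UMIs were drawn from each cell. The share of cells with a *Cox6a2* UMI was then 20% (exact 95% interval 11.4 to 31.3), 14.6% (9.26 to 21.4) and 21.1% (18.8 to 23.6) in activated cells, of 70, 144 and 1127 cells deep enough. Shallower cells left out were 3, 5 and 105. In other microglia the share was 2.92%, 1.69% and 3.49%. Without thinning, the shares were 34.2%, 36.9% and 45.4% in activated and 8.42%, 5.42% and 9.41% in other cells. As a background, choroid plexus epithelial cells held a *Cox6a2* UMI in 1.23% (0.254 to 3.55) of 244 thinned cells, and erythrocytes in 0 of 74, which allows up to 4.05%. The intervals of other microglia overlapped this background, and those of activated cells lay above it. The background pools the libraries and rests on 3 positive choroid plexus cells. Before thinning, the choroid plexus cells of the 3 libraries held 6, 0 and 18 *Cox6a2* UMIs. Its intervals are thus too wide to tell whether other microglia exceed it.

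Of the other 11 tested genes of complex IV, 10 were called higher. The catalytic core of the complex comes from the mitochondrial genome, and the nuclear subunits surround it. *Cox8a*, which encodes a small one, had 472, 528 and 662 CPM in activated and 335, 357 and 363 CPM in other cells. Its log2 fold change was 0.82 ± 0.12 (edgeR, adjusted p 1.5e-05). *Cox6c* had 248, 253 and 344 CPM against 174, 183 and 200.3 CPM, with a fold change of 0.78, and *Cox4i1*, the subunit through which ATP is known to regulate the enzyme, had 635, 721 and 759 CPM against 470.3, 485 and 479.7 CPM, with 0.73. For each of these genes all activated groups lay above all groups of other microglia. How many of all tested genes separate in this way was not counted, and 18.6% of them were called higher.

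At the low end of complex IV, *Cox5b* and *Cox7a2* were called higher at 0.63 and 0.59. *Cox7a2l*, which encodes a factor that helps join complexes into supercomplexes, did not pass, with 0.32 ± 0.12 and an edgeR adjusted p of 0.052. Its log2 ratio was below 0 in *Wt* and above 0 in both mutants. The tissue-restricted isoforms were nearly absent. *Cox4i2* had 11, 4 and 7 UMIs in other microglia, *Cox8b* 13, 8 and 5, *Cox7a1* 43, 45 and 23 and *Cox6b2* 195, 160 and 149, and *Cox7b2* and *Cox8c* had 0. Thus *Cox6a2* was the 1 isoform of this kind that passed the filter of 10 CPM.

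In complex III, the genes called higher were the small subunits *Uqcrh*, *Uqcrq*, *Uqcr11*, *Uqcr10* and *Uqcrb* and the Rieske iron-sulfur protein *Uqcrfs1*. *Uqcrh*, the hinge protein next to cytochrome c1, had 248, 326 and 414 CPM in activated and 207, 229 and 226 CPM in other cells, with an edgeR log2 fold change of 0.76 ± 0.13. The *Uqcrq* levels were 211, 187 and 246 CPM against 139.8, 139 and 152 CPM, with 0.76. In contrast, *Cyc1*, which encodes cytochrome c1, and the core proteins *Uqcrc1* and *Uqcrc2* did not pass, at 0.15, 0.04 and 0.11. *Uqcrc1* had 118, 95.1 and 102 CPM in activated and 114, 118 and 114 CPM in other cells, so the groups overlapped.

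A similar division was seen in complex V. *Atp5e*, the epsilon subunit of the rotor, had 359.9, 377 and 531 CPM in activated and 247, 257 and 300.2 CPM in other cells, and *Atp5k*, subunit e of the membrane part, had 102, 99.4 and 161 CPM against 71.0, 66.1 and 97.2 CPM. The edgeR log2 fold change was 0.83 ± 0.11 for each. The 3 genes for the identical c subunit of the membrane ring, *Atp5g1*, *Atp5g2* and *Atp5g3*, were all called higher, at 0.68, 0.69 and 0.66. Of the subunits listed as core, the beta subunit *Atp5b* passed at 0.36 and an edgeR adjusted p of 0.0076. That call was lost without the *PLPmut* library and without TMM. The alpha subunit *Atp5a1* and the gamma subunit *Atp5c1* did not pass, at 0.11 and 0.20. *Atp5a1* had 219, 221 and 212 CPM in activated and 234, 231 and 217 CPM in other cells. *Atp5s*, which encodes coupling factor B, was the lowest, at -0.07 with an edgeR adjusted p of 0.83.

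Complex I was divided evenly between genes called higher and genes that did not pass. *Ndufa1*, a small membrane subunit known to be needed for assembly, had 94.0, 145 and 226 CPM in activated and 70.5, 73.8 and 92.0 CPM in other cells. Its edgeR log2 fold change was 1.18 ± 0.14 (adjusted p 1.8e-06), and its CPM ratio was 1.33, 1.97 and 2.46 in the 3 libraries. *Ndufc1* and *Ndufa2*, accessory subunits as well, were higher by 0.79 and 0.71 on the log2 scale. Of core subunits of the electron-carrying arm, *Ndufs1*, *Ndufs3*, *Ndufs7*, *Ndufs8* and *Ndufv1* did not pass, with log2 fold changes from 0.02 to 0.13, and *Ndufv2* did, at 0.36. The call of *Ndufv2* was lost without the *PLPmut* or the *PLPtg* library, without TMM, and with cells called activated from 0.5% of UMIs. *Ndufs1* was exceptional in its spread, since it had 51.9, 26.1 and 24.0 CPM in activated cells, of which the *Wt* value came from 32 UMIs, against 33.9, 31.8 and 32.6 CPM in other microglia.

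By the mean log2 CPM ratio over the 3 libraries, the lowest tested genes of complex I were the assembly factors *Ndufaf7*, *Ndufaf3* and *Ndufaf2*, at -0.46, -0.26 and -0.18. *Ndufaf7* had 24.3, 33.4 and 26.5 CPM in activated and 39.1, 37.0 and 38.7 CPM in other cells, an edgeR log2 fold change of -0.24 that did not pass (adjusted p 0.17). The edgeR values of *Ndufaf3* and *Ndufaf2* were 0.03 and 0.12, within the range of the core subunits. Of the 8 Ndufaf genes 5 passed the filter, and of these *Ndufaf8* was called higher, at 0.63. Among 26 tested assembly factors with other symbols 5 were called higher, with a median of 0.09. These shares, 20% of the Ndufaf genes and 19.2% of the other factors, lay near the 18.6% of all tested genes.

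The 4 genes of complex II did not pass the edgeR test, and 1, *Sdhb*, had an unadjusted p under 0.05. DESeq2 called 0 of them. *Sdhb*, the iron-sulfur subunit, had 105, 115 and 132 CPM in activated and 109, 114 and 113 CPM in other cells, with a log2 fold change of 0.28 and an edgeR adjusted p of 0.051. The membrane anchors *Sdhc* and *Sdhd* had 0.18 and 0.07. *Sdha*, the flavoprotein that oxidizes succinate, had 82.7, 74.7 and 69.8 CPM against 94.1, 86.5 and 83.6 CPM, and its fold change was -0.03. The missing calls do not show that complex II was the same in both states.

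Over all complexes, 3 of the 14 listed core subunits (*Ndufv2*, *Uqcrfs1* and *Atp5b*) were called higher, with a median of 0.13. Their share of 21.4% lay near the 18.6% of all tested genes. Each of the 3 calls was lost under at least 1 of the 17 alternatives. Of the 64 other tested nuclear members, without the Ndufaf genes, 46 were called higher, with a median of 0.54. These 64 also hold the 4 genes of complex II, of which 0 were called, *Cox7a2l* and *Atp5g1* to *Atp5g3*. The list thus does not part all catalytic subunits from the rest. The listed core subunits are long. Their mRNAs had a median of 1638 bases, that of all members called higher was 680 bases and that of members not called 1487 bases. Across the 83 nuclear members, Spearman's rho between mRNA length and the log2 fold change was -0.53. Across the 7840 other tested genes with a length it was -0.29. All these points share the same 6 sums, so these correlations are descriptions.

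**Figure D3:**
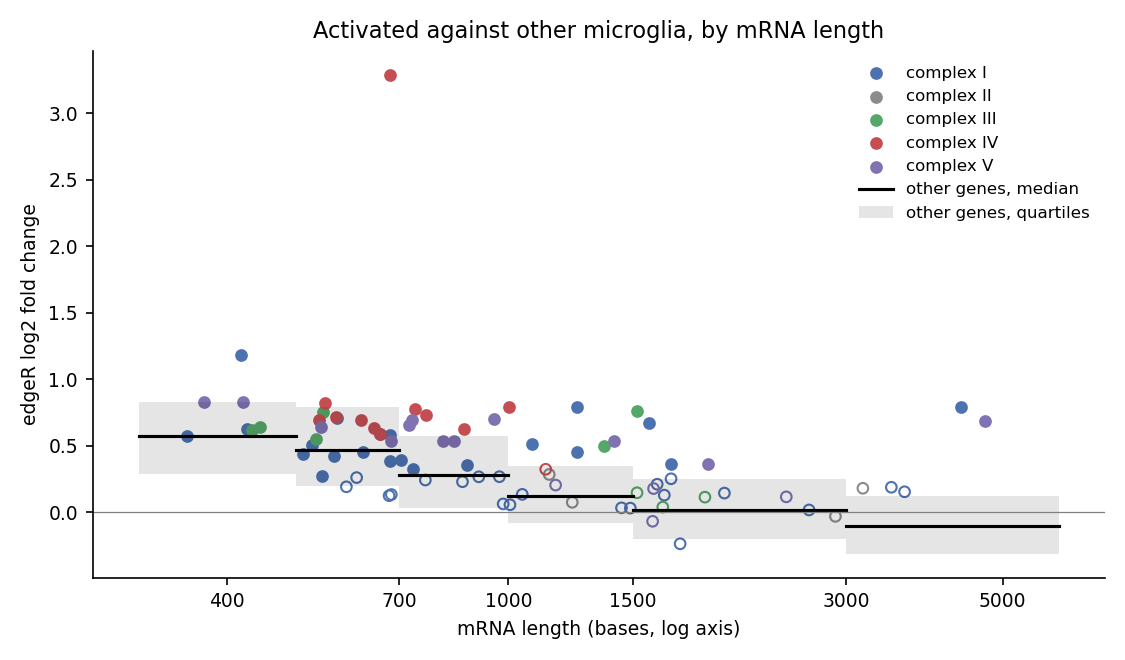
EdgeR log2 fold change of activated to other microglia (y axis) against mRNA length in bases (x axis, log scale) for the 83 nuclear members. Filled points passed the test and open points did not. Black lines and grey boxes give the median and quartiles of all other genes in 6 classes of length.

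Short mRNAs were called higher more often also outside the respiratory chain. Of other genes under 500 bases 73.5% were called higher, with a median log2 fold change of 0.57, and of those from 500 to 700 bases 65.0%, with 0.47. The members had 100% of 7 genes and 83.3% of 24 genes in these classes, with medians of 0.64 and 0.57, inside the quartiles of the other genes. From 700 to 1000 bases the medians were 0.46 over 16 members and 0.28 over other genes, from 1000 to 1500 bases 0.30 and 0.12, and from 1500 to 3000 bases 0.14 and 0.02. The median of the members thus lay above that of other genes in each of these classes. In the longest class, with 5 members, the medians were 0.19 and -0.10. The part of mRNA length in the results was not tested.

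Related gene lists put these values in context, beside 18.6% called higher and 16.2% called lower of all tested genes. Cytosolic ribosomal proteins, also short mRNAs, were called higher in 76 of 77 genes, with a median of 0.77. Glycolysis genes were higher in 12 of 14, with a median of 1.12, and lower in 1. Of the genes of the tricarboxylic acid cycle and pyruvate dehydrogenase 1 of 16 was higher and 1 lower, with a median of 0.12. Mitochondrial ribosomal proteins were higher in 23 of 77, with a median of 0.24, and the genes of mitochondrial biogenesis and DNA upkeep in 0 of 12, with a median of -0.07. Of carriers and coupling proteins 6 of 9 were higher and of mitochondrial antioxidants 5 of 9. Early response and heat shock genes were lower in 10 of 11. Of 2 nuclear RNAs, *Neat1* was called higher, at 0.43 (edgeR adjusted p 0.0019), and *Malat1* was not called, at -0.25 (edgeR adjusted p 0.26). Their sum, nearly all *Malat1*, had a log2 CPM ratio of -0.27, -0.24 and -0.72. The part of these lists in the results was not tested.

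The levels were followed along the activation score itself, from microglia with no UMI of the 4 genes to those with 1% and more. In *PLPtg*, where each range held at least 146 cells, complex IV had 2428 CPM at 0, 2604 CPM above 0 and under 0.1%, 3972 CPM from 0.1% to 0.5%, 4594 CPM from 0.5% to 1% and 4648 CPM at 1% and over. The level thus rose less from 0 to the range under 0.1% than across the limit of 0.1%, and it levelled off in the highest ranges. Complex I followed with 3993, 4003, 4721, 5138 and 5186 CPM. *Cox6a2* was higher in each further range, with 12.2, 25.3, 146, 175 and 208 CPM. In *Wt* and *PLPmut* the ranges from 0.5% held 6, 5, 12 and 4 cells and are not read here. Complex II had no such order, with 325, 316, 314, 328 and 337 CPM in *PLPtg*.

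**Figure D4:**
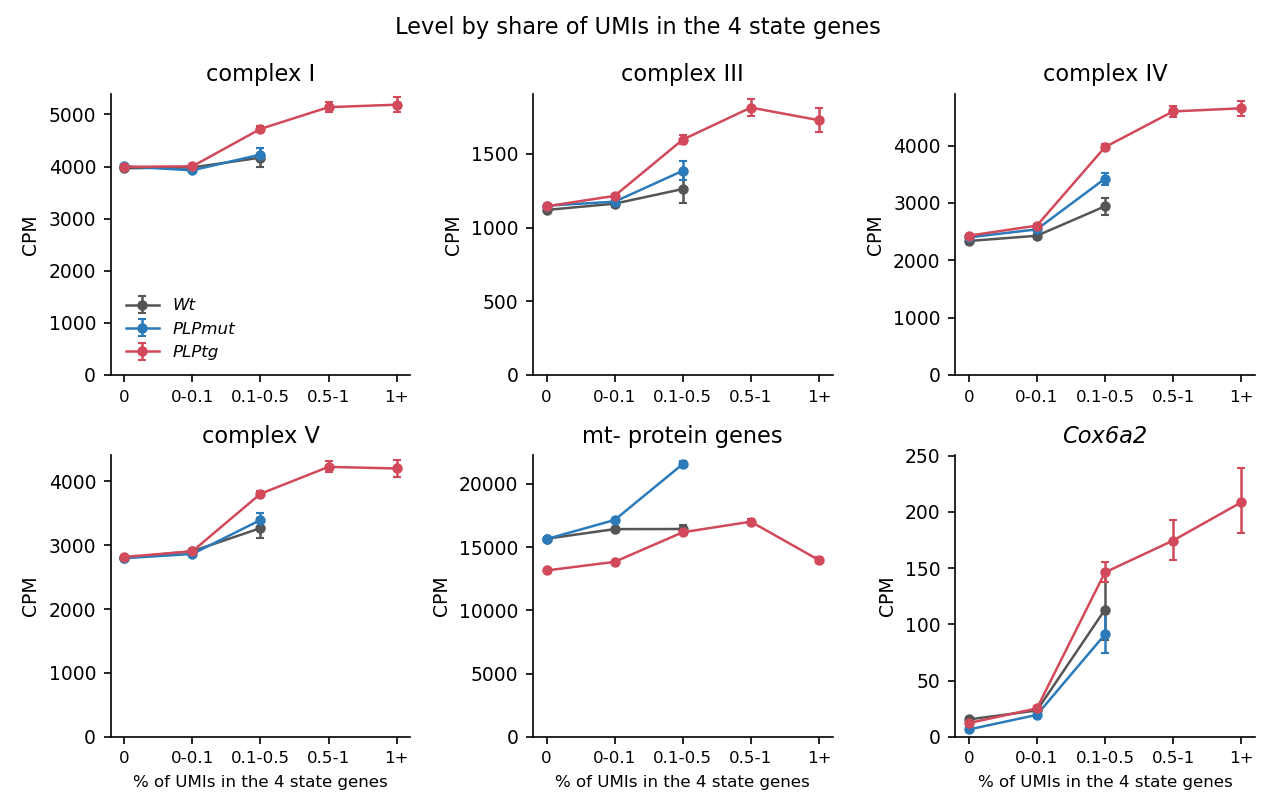
Level (y axis, CPM) of complexes I, III, IV and V, the mt- genes and *Cox6a2* in microglia by the share of UMIs in the 4 genes that define activation (x axis, 5 ranges), in each library, with exact Poisson 95% intervals. Ranges with under 20 cells are left out. The nuclear complexes and *Cox6a2* were highest in the ranges from 0.5% in *PLPtg*, whereas the mt- genes were lower again in the last range.

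The mitochondrial genome behaved less evenly. All mt- protein genes come from 2 long precursor RNAs, and they encode core subunits of complexes I, III, IV and V. Their sum was 16424, 21518 and 16142 CPM in activated and 15800.3, 16019 and 13501 CPM in other microglia, a log2 ratio of 0.06, 0.43 and 0.26. Of the 13 genes 10 were called higher and 0 lower by edgeR, beside 18.6% and 16.2% of all tested genes, with a median of 0.43. With the TMM scaling of the test, the log2 ratio of their sum was 0.13, 0.58 and 0.54. When the *PLPmut* library was left out, 1 of these calls remained. Among all genes, that setting called 1119 of 8068 higher, beside 1498 of 8051 with all libraries. None of the 10 calls held under every alternative.

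Of the complex IV genes, *mt-Co1* had 2039, 2994 and 2555 CPM in activated and 1943, 2158 and 1974 CPM in other cells, with an edgeR log2 fold change of 0.48. *mt-Co3* had 3336, 4837 and 3262 CPM against 3185, 3306 and 2573 CPM, with 0.49, and *mt-Co2* was higher by 0.48. In *Wt* the 2 states were closest. Of the complex I genes, *mt-Nd1*, *mt-Nd3*, *mt-Nd4* and *mt-Nd6* were called higher at 0.45, 0.31, 0.32 and 0.90, and *mt-Nd2*, *mt-Nd4l* and *mt-Nd5* did not pass, at 0.23, 0.18 and 0.22. *mt-Nd6* had 4 UMIs in activated *Wt* cells, its call was lost without *PLPtg*, and it is encoded on the other strand than the rest. *mt-Cytb* of complex III was called higher by 0.36, and *mt-Atp6* and *mt-Atp8* of complex V by 0.43 and 0.51. The median share of mitochondrial UMIs per cell was 1.33%, 1.86% and 1.14% in activated and 1.51%, 1.52% and 1.26% in other microglia.

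The next question was whether the genotypes differ in the microglia that are not activated. With 1 library each there is no test, and differences beyond a log2 ratio of 0.32 in either direction were counted. In *PLPmut* other microglia, 0 nuclear members of 83 were higher and 1 was lower than in *Wt*, beside 2% higher and 2.35% lower of all genes. The gene was *Cox6a2*, with 9.74 against 16.8 CPM, a log2 ratio of -0.79 (exact interval -0.93 to -0.65). This gene was near the floor in these cells. Its *PLPmut* value lay under the 10 CPM asked of the mean over all groups. In thinned cells its share in other microglia overlapped that of the background cells, and the part of background RNA in this ratio was not tested. The sums of complexes I to V differed from *Wt* by log2 ratios from -0.02 to 0.05, and the mt- genes by 0.02. *mt-Nd4l* was the 1 mt- gene beyond this limit, at 0.35. At the ends of complex I stood *Ndufa3* at 0.16 and *Ndufs6* at -0.21.

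In *PLPtg* other microglia, 4 of 83 nuclear members were higher than in *Wt* and 0 lower. Of all 8051 genes, 263 (3.27%) were higher and 107 (1.33%) lower, so the share of members lay near that of all genes. The 4 members were *Ndufa3* (139 against 89.8 CPM, log2 ratio 0.64), *Atp5k* (97.2 against 71.0 CPM, 0.45), *Ndufa1* (92.0 against 70.5 CPM, 0.38) and *Cox7c* (312 against 243 CPM, 0.36). The counting intervals of all these ratios lay above 0.32. These 4 genes encode small accessory subunits, with mRNAs of 351 to 540 bases, which is a description of 1 pair of libraries. Across the 83 members Spearman's rho of this ratio with mRNA length was -0.45, whereas over the 7840 other genes it was 0.05. The 7 members under 500 bases had a median of 0.28, beside 0.09 for the other genes of that length. The points of each correlation share the same pair of libraries. The sums of complexes I to V differed by -0.09 to 0.10. The 9 neuron markers summed to 23.4, 14.1 and 56.5 CPM in other microglia of the 3 libraries, highest in *PLPtg*, and their part in these differences was not tested.

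**Figure D5:**
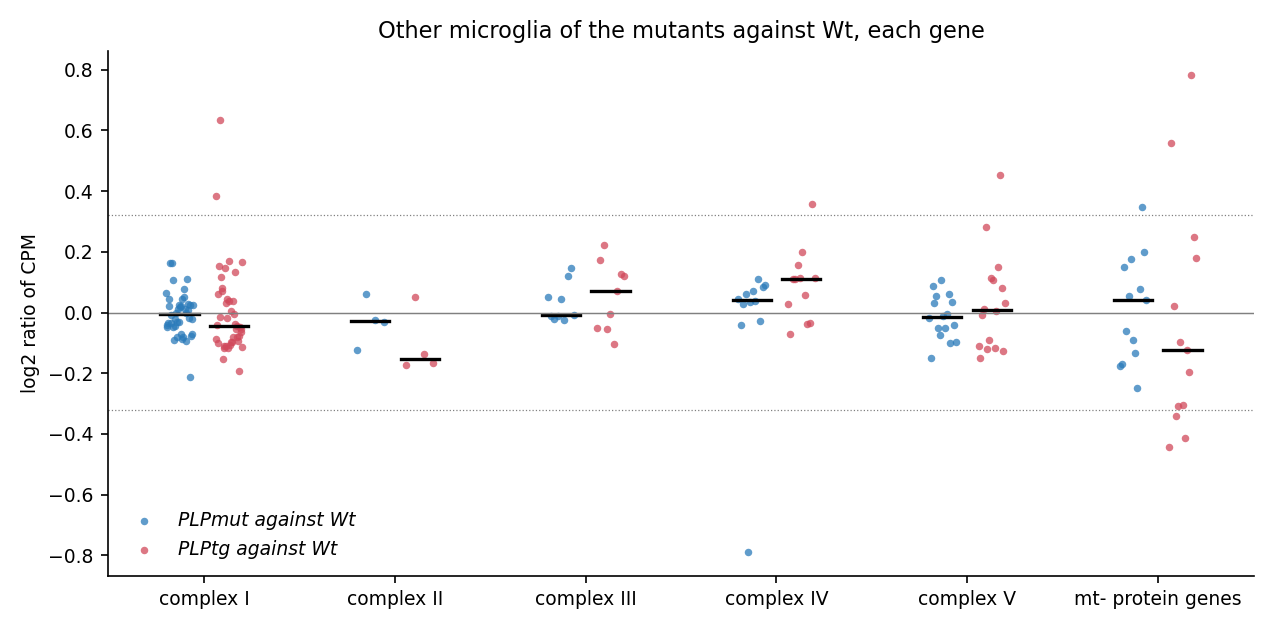
Log2 ratio of CPM in other microglia of *PLPmut* and *PLPtg* to *Wt* (y axis) for each tested gene, by complex. Black bars are medians and dotted lines mark the limit of 0.32. Nearly all nuclear genes lie between the lines, and the mt- genes of *PLPtg* spread from -0.44 to 0.78. *Cox6a2*, which was near the floor in these cells, lies at -0.79 in *PLPmut*.

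The mt- genes of *PLPtg* moved in both directions. Their sum was 15800.3, 16019 and 13501 CPM in the 3 libraries. *mt-Atp6*, *mt-Nd2* and *mt-Co2* were beyond the limit on the lower side, at -0.44, -0.41 and -0.34, while *mt-Nd4l* and *mt-Atp8* were beyond it on the higher side, at 0.78 and 0.56. *mt-Nd4l* had 102, 129.7 and 176 CPM and *mt-Atp8* 19.3, 17.2 and 28.5 CPM in the 3 libraries. Each of these 2 genes overlaps its neighbour, *mt-Nd4* and *mt-Atp6*, and shares an mRNA with it. How the authors' counting divided reads between them is not known here, and its part in these ratios was not tested. *mt-Nd4* had a log2 ratio of -0.20.

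Among activated cells, the libraries were set side by side as values, with 73 cells behind *Wt*. Complex IV in *PLPtg* lay above *Wt* by a log2 ratio of 0.43 and complex III by 0.29, beside 0.16 for I, -0.03 for II and 0.17 for V. Of the 12 tested complex IV genes 9 were beyond the same limit on the higher side and 0 on the lower, and over all complexes 26 of 83 were higher and 6 lower, beside 13.1% and 38.1% of all genes. *Ndufa1* had the largest ratio of the nuclear members, 1.27. In *PLPmut*, 7 nuclear members were higher and 8 lower than in *Wt*, beside 17% and 28.6% of all genes, and 8 of 13 mt- genes were higher, with a sum above *Wt* by 0.39. These ratios share the activated *Wt* cells. All genes together had a median of -0.20 in *PLPtg* and -0.08 in *PLPmut* against *Wt*.

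The other sorted cells showed a much wider range of levels than the states of microglia. Choroid plexus epithelial cells, which transport ions into cerebrospinal fluid at a high cost in energy, held 13294 CPM of complex I, 4674 of III, 10840 of IV and 10793 of V over 380 cells. These are levels above those of every microglia group, in each library. Erythrocytes, which lose their mitochondria, held 316 CPM of complex I and 318 CPM of complex IV in 100 cells. The oligodendrocyte cluster, with 453 cells and a median of only 652 UMIs, held 6613 CPM of complex I and 5206 CPM of complex IV. Against all other cells its oligodendrocyte markers were raised 143.0-fold. Markers of oligodendrocyte precursors were raised 94.3-fold, of astrocytes 33.8-fold and of neurons 5.1-fold. The mt- genes held 112401 CPM there. Its levels may thus not be those of oligodendrocytes alone.

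Promoter sequence was examined because nuclear respiratory genes are known to share binding sites of the nuclear respiratory factors. RefSeq (GRCm38.p6) gave the promoter of 74 members. The letters GCATGCGC, the core of the NRF1 site, stood on either strand of the 250 bases before the start of 9 of them (12.2%), beside 2.56% of all 27025 genes. The ETS site CCGGAAG, which NRF2 (GABP) binds, stood in 14 members (18.9%) and 7.83% of all genes, and the TATAAA box in 6 (8.11%) and 14.3%. The median GC content of the windows was 56.4% in members and 52.4% in all. The set of all genes is every gene with a RefSeq promoter, and no comparison was limited to genes expressed in microglia. Of the 9 members with the NRF1 core 5 were called higher in activated cells, and of the 14 with the ETS site, of which *Ndufaf1* was not tested, 11, beside 50 of all 83 tested members.

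Only *Atp5l* and *Cox6a1* held both. Their windows, with those of *Atp5g2* and *Uqcrh*, which hold 1 motif each, are printed 5′ to 3′ on the minus strand of GRCm38.p6, with the motifs in capitals. All 4 genes were called higher. No promoter was matched for *Cox6a2*.
Cox6a1, chr5:115348959-115349150: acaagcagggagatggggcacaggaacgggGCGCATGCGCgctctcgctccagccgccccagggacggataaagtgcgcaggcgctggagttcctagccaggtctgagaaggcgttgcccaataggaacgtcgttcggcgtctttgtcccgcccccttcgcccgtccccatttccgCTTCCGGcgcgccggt
Atp5l, chr9:44920918-44920992: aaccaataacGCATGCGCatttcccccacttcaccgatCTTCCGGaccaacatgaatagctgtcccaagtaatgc
Atp5g2, chr15:102671050-102671119: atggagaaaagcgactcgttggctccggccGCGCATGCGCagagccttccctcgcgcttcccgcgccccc
Uqcrh, chr4:116075071-116075110: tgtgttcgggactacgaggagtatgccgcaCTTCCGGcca
A match of these letters is a description and not a measured site.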

How the data were processed

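Each genotype gave 1 library (10x Genomics 3′ chemistry) for which cells of 3 mice were combined. The authors aligned reads to mm10 with Cell Ranger 2.0.2 and STAR 2.5.1b, per the labels, and deposited raw UMI counts per gene and barcode, without normalization. The matrix headers name software version 3.1.0. Barcodes were kept with over 100 and under 6000 genes, where mitochondrial UMIs made up no more than 60%, and were clustered with Seurat 5.3.0 (2000 variable genes without the respiratory and activation genes, 10 principal components, resolution 0.5) in R 4.3.3. Microglia clusters had at least 4.5% of UMIs in microglia markers, a depth of at least 1/3 of their library and no 3-fold raised list of another cell type. These limits were set after the data were seen. Doublets were not called beyond the limit of genes per cell, with under 4000 genes as an alternative.

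UMIs were summed per library and state and scaled to CPM, with exact Poisson intervals, and ratios have exact conditional 95% intervals. Both cover counting error only. The states were tested with edgeR 4.0.16 (TMM, library block, means of at least 10 CPM), with DESeq2 1.42.0 as an alternative. No test was made between genotypes. Pooled mice give 1 value per genotype, so the only replicates of the p-values are 3 libraries. The edgeR p-values also rest on a dispersion shared over all genes, with 16.99 prior degrees of freedom. Gene positions and mRNA lengths (the coding transcript with the longest coding part) are those of GENCODE M21.

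Named genes were the 3 largest and 3 smallest mean ratios per complex between states, the 2 largest and 2 smallest per complex between libraries, core subunits, paralogs, *Sdha* to *Sdhd* and all mt- genes, of which the text gives those that describe each complex. *Atp5g* and *Cox* isoforms belong to the paralogs. The members and all lists were chosen with earlier results of these data known. A result for 1 named item is not reported here.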

Additional observations from a re-analysis of the deposited data

Results flagged for a closer look

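For 3 genes of complex I, the CPM ratio of activated to other microglia lay above 0 in 1 library and below 0 in another, each beyond its counting interval on the log2 scale. *Ndufs1* had 0.62 in *Wt* and -0.45 in *PLPtg*. *Ndufa6*, an accessory subunit, had -0.24 in *PLPmut* and 0.31 in *PLPtg*, and *Ndufc2*, another accessory subunit, had -0.20 in *PLPmut* and 0.069 in *PLPtg*. The difference between libraries was not tested, since each genotype has 1 library, and none of the 3 genes passed the test between the states (edgeR adjusted p 0.96, 0.28 and 0.37).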

How the results depend on the processing

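The log2 ratios of the complex sums kept their direction under every alternative for complexes I, III, IV, V and the mt- genes. With cells called activated from 0.5% of UMIs, the mean ratio was 0.29 for complex I, 0.49 for III, 0.51 for V and -0.0031 for II, and with TMM scaling it was 0.34 for I, 0.51 for III, 0.52 for V and 0.11 for II. Complex II was at 0.0023 with activation from 0.2% of UMIs and at 0.0052 when mt- and ribosomal protein genes were left out of the totals. Of the mt- genes, 1 was called higher at the 0.5% limit, 6 with a mean of at least 50 CPM, 4 with no library block and 5 with library totals without TMM, which also called 1 nuclear member lower. Among all genes, 740 of 7905, 782 of 3100, 1550 of 8051 and 899 of 8051 were called higher in these settings, in the same order. This last setting and the one without a library block change the scaling and the spread only. For the other changes the cause was not tested. Leaving out 1 library gave from 1 (without *PLPmut*) to 11 (without *Wt*) mt- genes, and from 40 (without *PLPtg*) to 58 (without *Wt*) nuclear genes. Among all genes, 1485 of 7951 were called higher without *Wt*, 1119 of 8068 without *PLPmut* and 988 of 8071 without *PLPtg*. At a fold of 1.5, 1 nuclear member of 83 was higher in other microglia of *PLPtg* than of *Wt*, beside 108 of all 8051 genes. Library totals without TMM were chosen after seeing the data. Of the nuclear calls 35 of 50 held in all 17 settings, in complex IV 11 of 11 and in complex I 8 of 21. The states were paired by library, and without that block 50 nuclear genes were called higher, as many as with it. Between genotypes there were no pairs, since each has 1 library. The 73 activated *Wt* cells limit every ratio that uses them.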
